A study of Mus musculus with 6 samples.

Results

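The core of the circadian clock was examined in the prefrontal cortex (PFC) through 10 genes, chosen by symbol from the 22000 listed in the count table: the activators Arntl, Clock and Npas2, the ROR receptor gene Rora, the cryptochromes Cry1 and Cry2, the repressors Nfil3 and Bhlhe40, and the casein kinases Csnk1d and Csnk1e. RNA was sequenced from 3 control mice and 3 mice exposed to early life stress (ELS), with 1 library per mouse. All were male C57BL/6N mice aged 9 weeks. The paper took ELS and control mice from litters that share a mother, without giving the litter of each sequenced mouse. ELS mice lived alone under a filter cap from weaning into adolescence, whereas controls shared a cage, and each kept its housing in a light:dark cycle until dissection. The hour of dissection, which matters for genes with a daily rhythm, is not given in the sources used here.

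The molecular clock is a feedback loop that runs in nearly every cell. The ARNTL protein, also called BMAL1, pairs with CLOCK or with its relative NPAS2 and switches on genes that carry E-box motifs, among them the Per and Cry genes. The PER and CRY proteins return to the nucleus and block the activators, and the kinases CSNK1D and CSNK1E set the pace by phosphorylating PER. In a second loop, ROR proteins and the REV-ERB proteins compete for a shared motif, the RORE, and so drive or repress Arntl. NFIL3 represses genes with D-box motifs, and BHLHE40, also called DEC1, represses E-box genes and is also induced by neuronal activity, hypoxia and other signals. The brain's master clock lies in the suprachiasmatic nucleus of the hypothalamus, and in the cortex NPAS2 is abundant beside CLOCK.

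Of the 10 genes, none passed the thresholds for a differentially expressed gene (DEG), and 9 had a 95% interval of the fold change that included no change. Bhlhe40 was the exception, with an ELS level 80.1% of the control level (95% interval 69.6% to 92.1%) and groups that did not overlap, as in 8.28% of all genes in either direction, and the quasi-likelihood test of edgeR left it at an adjusted p of 0.861. Csnk1d was the most tightly bounded, with an ELS level 101% of the control level (95% interval 92.1% to 111%). The activators were at 94.9% for Arntl (95% interval 80.5% to 112%), 95% for Clock (83.5% to 108%) and 107% for Npas2 (95.9% to 120%). A DEG needed an adjusted p below 0.05 together with a log2 fold change beyond 0.3 in either direction. Across all 13185 genes tested, 0.0152% were called.

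Motifs were searched in RefSeq promoters of GRCm38.p6, windows of 300 bases running from 250 before to 50 after each start, to see which members carry the letters of the loops. Of the 10 genes, 8 had an entry, with 14 windows in all, and Bhlhe40 and Csnk1d had none. The E-box CACGTG, which reads the same on both strands, was found in 1 of the 8, Cry1. It is held by 7.15% of all 32851 windows and 8.09% of all genes with one. The RORE, the AGGTCA site with its A/T-rich flank, searched on both strands, was found in 1 of the 8, Arntl, against 0.259% of all genes. The D-box TTATGTAA, searched on both strands, was found in none of the 8, against 1.11% of all genes. No 2 of these motifs overlapped in the stretches printed. The Cry1 and Arntl stretches print the only E-box and the only RORE found among the members. At 1 of 8 genes, the E-box was near its share over all genes. Another window of Arntl held no RORE. The other E-box stretches come from Per1, Bhlhe41 and Tef, clock genes outside the list that were picked as holders of the motif. Of the 25 clock genes outside the list, 20 had an entry, and the E-box was found in 4 of them. Dbp, Nr1d1 and Nr1d2 had an entry without it. Ciart also held the E-box, at 116, 58 and 44 bases before its start, and is not printed. Capitals mark the motif.
Arntl, chr7:113207528-113207556 (plus strand): ggaaggcagAAAGTAGGTCAgggacggag
Cry1, chr10:85185082-85185141 (minus strand): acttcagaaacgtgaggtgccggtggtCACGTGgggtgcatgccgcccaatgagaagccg
Per1, chr11:69098756-69098815 (plus strand): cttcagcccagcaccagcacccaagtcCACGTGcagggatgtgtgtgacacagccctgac
Bhlhe41, chr6:145865541-145865600 (minus strand): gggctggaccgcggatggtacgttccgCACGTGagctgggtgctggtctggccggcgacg
Tef, chr15:81802519-81802578 (plus strand): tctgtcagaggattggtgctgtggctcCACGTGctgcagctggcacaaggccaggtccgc
The Arntl motif began 26 bases after the start of its window's transcript, and the Cry1 motif began 60 bases before the start. The E-box began 166 bases before the start in Per1, 153 in Bhlhe41 and 127 in Tef, and a second window of Tef held one 138 bases before its start. A match of letters is a description of the sequence and says nothing of binding in these mice.

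Values are counts scaled to library size (CPM) with TMM factors, with SDs over 3 mice. The libraries held 28405795 to 35241743 counts each, and the members had between 245 reads (Nfil3) and 5245 reads (Bhlhe40) in a mouse. The tissue was checked with marker lists. Neuronal markers summed to between 7541 and 8113 CPM. Of the 5 markers of the suprachiasmatic nucleus, Nms had no read in any mouse, and Avp, Prok2 and Six6 were under 1 CPM in every mouse. The remaining one, Vip, is also used by cortical interneurons. Striatal markers, of which 7 of 8 were in the table, summed to 467 CPM in control mouse 3 and 443 CPM in ELS mouse 1, and to between 243 and 316 CPM in the other mice. The same pair of mice had the highest sums of oligodendrocyte markers (7556 and 6626 CPM, against 5666 to 6297 CPM) and of blood markers (85.2 and 79.7 CPM, against 51 to 64.4 CPM). They also had the lowest sums of PFC layer markers, 263 CPM in each against 298 to 323 CPM, and of astrocyte markers, 4647 and 4057 CPM against 4720 to 4856 CPM. Choroid plexus markers summed to between 3.08 and 3.35 CPM in the controls, below the 3.44 to 4.63 CPM of the ELS group, and their defining genes Ttr and Folr1 were under 1 CPM in every mouse. The endothelial gene Cldn5 had a log2 fold change of 0.31, with an unadjusted p of 0.0109 and an adjusted p of 0.97 by the quasi-likelihood test. It was the only marker of any list under 0.05 before adjustment, beside 4.23% of all genes. In bulk tissue, fewer cells of a type and less RNA per cell cannot be told apart.

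**Figure D1:**
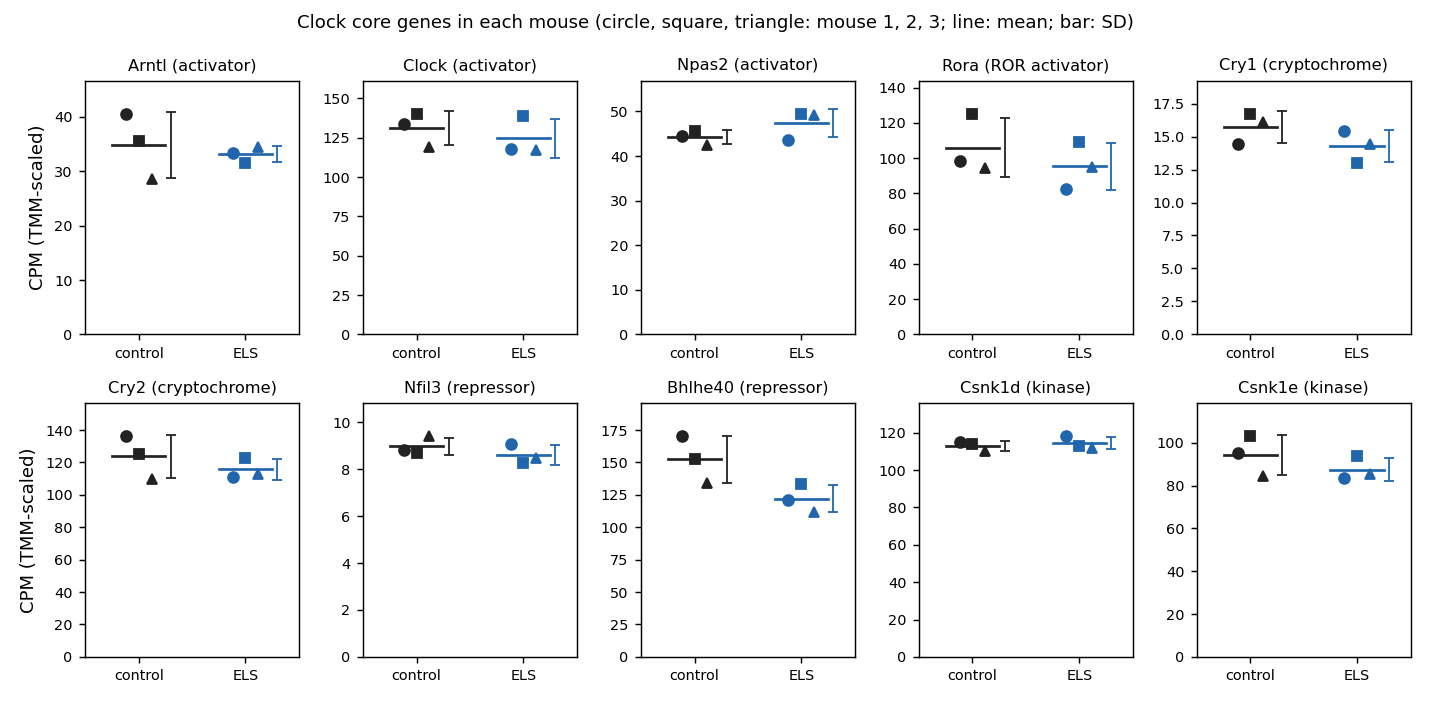
Each panel shows 1 clock core gene in CPM on an axis from 0, with control mice in black and ELS mice in blue, 1 point per mouse, a line at the mean and a bar for the SD. The groups overlap in every panel but that of Bhlhe40, where the lowest control mouse at 134 CPM and the highest ELS mouse at 133 CPM nearly touch.

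Arntl encodes the partner that both CLOCK and NPAS2 need to bind DNA. It lies at chr7:113207465-113314126 (plus strand, GRCm38 here and for the other members). Controls 1 to 3 had 40.5, 35.5 and 28.5 CPM, and animals 1 to 3 of the ELS group 33.4, 31.5 and 34.4 CPM. The control mice spanned both sides of the ELS mice, which lay close together, with an SD of 6.05 CPM among controls against 1.5 CPM. The log2 fold change was -0.08 (standard error 0.109, 95% interval -0.31 to 0.16, adjusted p = 1, edgeR). Its direction rested on control mouse 1, without which the log2 fold change was 0.049, and it was -0.20 without control mouse 3.

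Clock encodes the histone acetyltransferase partner of ARNTL, and lies at chr5:76209868-76304792 (minus). It had 134, 140 and 119 CPM in controls 1 to 3, against 118, 139 and 117 CPM for ELS animals 1 to 3. Both groups held mice at the upper and lower end, and ELS mouse 2 lay just below control mouse 2. ELS over control gave a log2 fold change of -0.07 (standard error 0.0856, 95% interval -0.26 to 0.11, adjusted p = 1, edgeR), and it ran from -0.16 without ELS mouse 2 to -0.024 without control mouse 2.

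Npas2, the relative of Clock that is prominent in the forebrain, lies at chr1:39193731-39363236 (plus). It had 44.6, 45.6 and 42.5 CPM in controls 1 to 3, against 43.7, 49.4 and 49.1 CPM for ELS animals 1 to 3. ELS mice 2 and 3 were above every control mouse, while ELS mouse 1 lay among the controls. Its log2 fold change of 0.10 (standard error 0.0738, 95% interval -0.06 to 0.26, adjusted p = 1, edgeR) was above 0 in all 15 alternative fits, without passing the thresholds in any, and ran from 0.065 without ELS mouse 2 to 0.15 without ELS mouse 1.

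Rora encodes a nuclear receptor that activates Arntl through ROREs and is also a gene of sensory-input layers of cortex, and lies at chr9:68653786-69388246 (plus). It had 98.6, 125 and 94.4 CPM in controls 1 to 3, against 82.4, 109 and 94.8 CPM for ELS animals 1 to 3. Control mouse 2 was the highest and ELS mouse 1 the lowest, and the remaining mice of both groups were interleaved. On the log2 scale the fold change was -0.15 (standard error 0.115, 95% interval -0.40 to 0.10, adjusted p = 1, edgeR), and it ran from -0.26 without ELS mouse 2 to -0.017 without control mouse 2. The list of 5 PFC layer markers summed to between 263 and 323 CPM in controls and between 263 and 300 CPM under ELS. None of the 5 had p below 0.05 by edgeR before adjustment, beside 4.23% of all genes. The part of layer composition in the Rora values was not tested.

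The cryptochromes are the direct blockers of the activators. Cry1, at chr10:85131700-85185064 (minus), had 14.4, 16.7 and 16.1 CPM in controls 1 to 3, against 15.4, 13.0 and 14.4 CPM for ELS animals 1 to 3. Control mouse 1 lay among the ELS mice. The log2 fold change was -0.14 (standard error 0.1, 95% interval -0.36 to 0.08, adjusted p = 1, edgeR), and it was -0.079 without ELS mouse 2.

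Cry2, at chr2:92403646-92434043 (minus), had 136, 125 and 110 CPM in controls 1 to 3, against 111, 123 and 113 CPM for ELS animals 1 to 3. Control mouse 3 was below every ELS mouse. The log2 fold change was -0.10 (standard error 0.0823, 95% interval -0.28 to 0.08, adjusted p = 1, edgeR). With each mouse left out it ran from -0.18 without control mouse 3 to -0.028 without control mouse 1, while Cry1 was at -0.12 and -0.20 in those fits. Cry1 and Cry2 did not follow each other from mouse to mouse. Control mouse 1 was the lowest of the controls for Cry1 and the highest for Cry2, and ELS mouse 2 was the lowest ELS mouse for Cry1 and the highest for Cry2.

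Nfil3, also called E4BP4, encodes a D-box repressor that is itself driven through ROREs, and lies at chr13:52967209-52981073 (minus). It had 8.84, 8.68 and 9.40 CPM in controls 1 to 3, against 9.09, 8.27 and 8.5 CPM for ELS animals 1 to 3. ELS mouse 1 lay among the controls. ELS over control gave a log2 fold change of -0.06 (standard error 0.109, 95% interval -0.29 to 0.18, adjusted p = 1, edgeR), and it ran from -0.100 without ELS mouse 1 to -0.025 without control mouse 3.

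Bhlhe40, at chr6:108660629-108666925 (plus), had 170, 153 and 134 CPM in controls 1 to 3, against 121, 133 and 112 CPM for ELS animals 1 to 3. The groups did not overlap, and a gap of 0.557 CPM separated control mouse 3 from ELS mouse 2 below it. The same order without overlap held with DESeq2 size factors, upper-quartile factors and no scaling beyond library size. Among all genes tested, 4.47% had groups that did not overlap with ELS lower, and 2.34% had p below 0.05 before adjustment with ELS lower. The means were 152 ± 18.4 CPM for controls and 122 ± 10.8 CPM under ELS (SD over 3 mice). On the log2 scale the fold change was -0.32 (standard error 0.0931, 95% interval -0.52 to -0.12), and edgeR gave an unadjusted p of 0.00461 and an adjusted p of 0.861. DESeq2 gave an adjusted p of 0.303 and limma-voom one of 0.892.

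The call for Bhlhe40 depended on control mouse 3, the control with the lowest Bhlhe40 level. Without it the log2 fold change was -0.41 (standard error 0.0776, adjusted p = 0.0497, edgeR), which passed both thresholds, at a rate of calls over all genes of 0.219%. That mouse had the highest sums of striatal (467 CPM), oligodendrocyte (7556 CPM) and blood markers (85.2 CPM) of the 6, and only the striatal level was entered as a covariate. With the striatal marker level as a covariate, Bhlhe40 had a log2 fold change of -0.27 and an adjusted p of 0.0681 in the quasi-likelihood test, at a rate of calls of 0.235%. With both control mouse 3 and ELS mouse 1 left out it had -0.40 and 0.0503, at a rate of 0.204%. Both fits were added after the values were seen. An antisense gene overlaps 2.51% of the Bhlhe40 exons, and the setting for strand in the counting is not stated.

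The casein kinases phosphorylate PER proteins and mark them for breakdown. Csnk1d, at chr11:120961749-120991330 (minus), had 115, 114 and 110 CPM in controls 1 to 3, against 118, 113 and 112 CPM for ELS animals 1 to 3. Within a group the mice differed little, with SDs of 2.32 CPM for controls and 3.07 CPM under ELS. The log2 fold change was 0.02 (standard error 0.0624, 95% interval -0.12 to 0.15, adjusted p = 1, edgeR), and its sign turned in 3 of the 15 alternative fits.

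Csnk1e, at chr15:79417856-79455566 (minus), had 95.4, 103 and 84.4 CPM in controls 1 to 3, against 83.4, 93.8 and 85.4 CPM for ELS animals 1 to 3. Control mouse 3 lay among the ELS mice. ELS over control gave a log2 fold change of -0.11 (standard error 0.0822, 95% interval -0.29 to 0.07, adjusted p = 1, edgeR), and it ran from -0.18 without control mouse 3 to -0.038 without control mouse 2. Its SD of 9.35 CPM in control mice was wider than that of its relative Csnk1d.

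**Figure D2:**
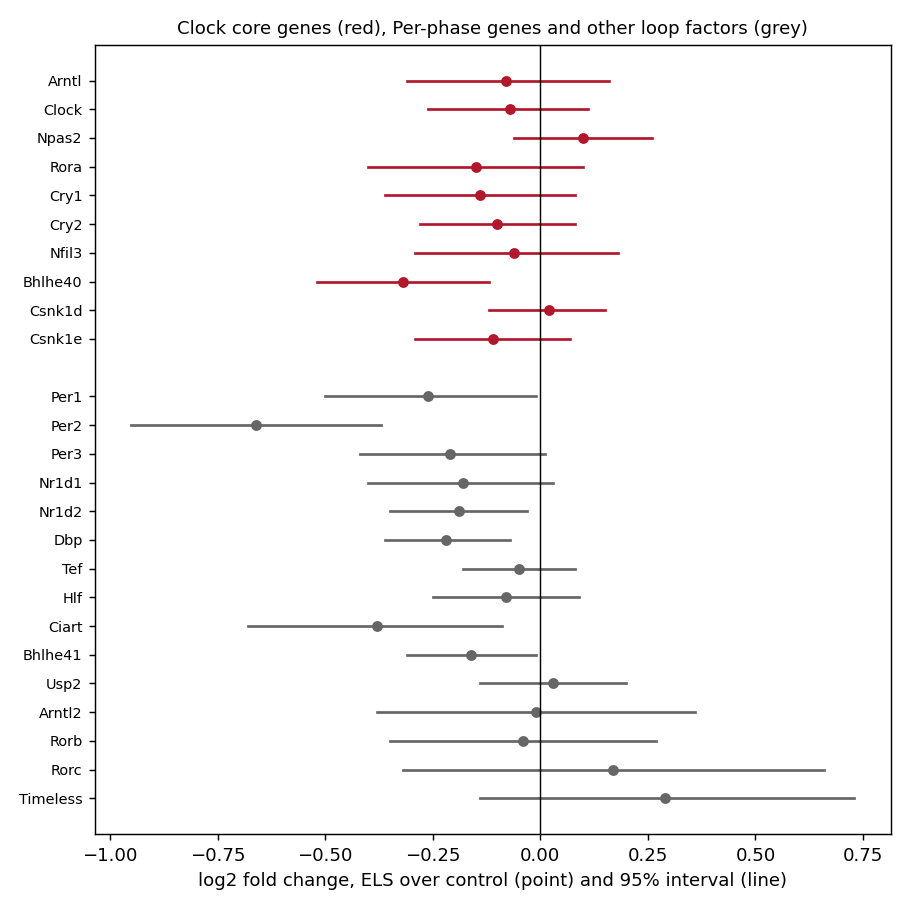
Points give the log2 fold change of ELS over control and lines its 95% interval from edgeR's quasi-likelihood fit, for the 10 clock core genes in red and, in grey, the 11 Per-phase genes and 4 other factors of the loops. Among the red intervals only that of Bhlhe40 lies wholly below 0, and among the grey ones those of Per1, Per2, Nr1d2, Dbp, Ciart and Bhlhe41 do.

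Taken as a list, 8 of the 10 members had a log2 fold change below 0, against 52.5% of all genes tested. The median of the members was -0.088, and that of all genes was -0.005. Before adjustment, edgeR put 1 of the 10, Bhlhe40, at p below 0.05, beside 4.23% of all genes in either direction, and DESeq2 put the same 1 there, beside 3.72%. DESeq2, limma-voom and the fit with a replicate block called none of the 10, against 0.137%, 0.0152% and 0.0531% of all genes.

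The other genes of the clock were taken as a list of 25, all of which passed the filter. None was called by edgeR, beside 0.0152% of all genes, and 6 had p below 0.05 before adjustment with ELS lower, beside 2.34% of all genes. All 6 were among the 11 targets and repressors of the Per phase. DESeq2 called 1 of the 25, Per2, at a rate over all genes of 0.137%. Per2, which encodes a partner of the cryptochromes, had 41.3, 38.2 and 31.5 CPM in controls 1 to 3, against 27.6, 24.3 and 18.5 CPM for ELS animals 1 to 3. The adjusted p of its log2 fold change of -0.66 was 0.322 by edgeR and 0.00418 by DESeq2. It was 0.0177 without control mouse 3 and 0.00673 with the replicate block, both by edgeR, and from 0.259 to 0.999 with each of the other mice left out. By edgeR it was also 0.00947 with the striatal covariate and 0.00051 without control mouse 3 and ELS mouse 1, and by limma-voom it was 0.37. Bhlhe41, the closest relative of Bhlhe40, had 44.9, 47.2 and 43.4 CPM in controls 1 to 3, against 41.1, 40.8 and 39.2 CPM for ELS animals 1 to 3. Its groups did not overlap, as in 6 of the 25, all with ELS lower, beside 4.47% of all genes with ELS lower. The log2 fold change of Bhlhe41 was -0.16 (95% interval -0.31 to -0.01, adjusted p = 1, edgeR).

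For the other named Per-phase genes the log2 fold changes were -0.26 for Per1, -0.38 for Ciart, -0.22 for Dbp, -0.19 for Nr1d2 and -0.18 for Nr1d1, each with an adjusted p of 0.907 or more by edgeR. Without control mouse 3, Per1 was at -0.39 with an adjusted p of 0.0497 by edgeR, and was called, at a rate over all genes of 0.219%. It was also called without control mouse 3 and ELS mouse 1 (-0.41, adjusted p = 0.0324, edgeR), at a rate of 0.204%. With the striatal covariate Per1 was at -0.18 with an adjusted p of 0.538 by edgeR. It was at -0.17 without control mouse 1 and at -0.18 without ELS mouse 3, each with an adjusted p of 0.999 by edgeR. Without ELS mouse 1, Ciart was at -0.22 and Nr1d1 at -0.097. Nr1d1 was at -0.10 without control mouse 2 and at -0.28 without ELS mouse 2. Per1 encodes a further PER repressor, Ciart and Nr1d1 encode repressors of the activators and of Arntl, and Dbp a D-box activator. The median log2 fold change was -0.189 over the 11 Per-phase genes and 0.023 over the 10 kinases and ubiquitin ligases that act on PER or CRY. The second median was -0.013 without ELS mouse 2. None of those 10, among them Csnk1a1 and Gsk3b, had p below 0.05 by edgeR before adjustment, beside 4.23% of all genes.

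**Figure D3:**
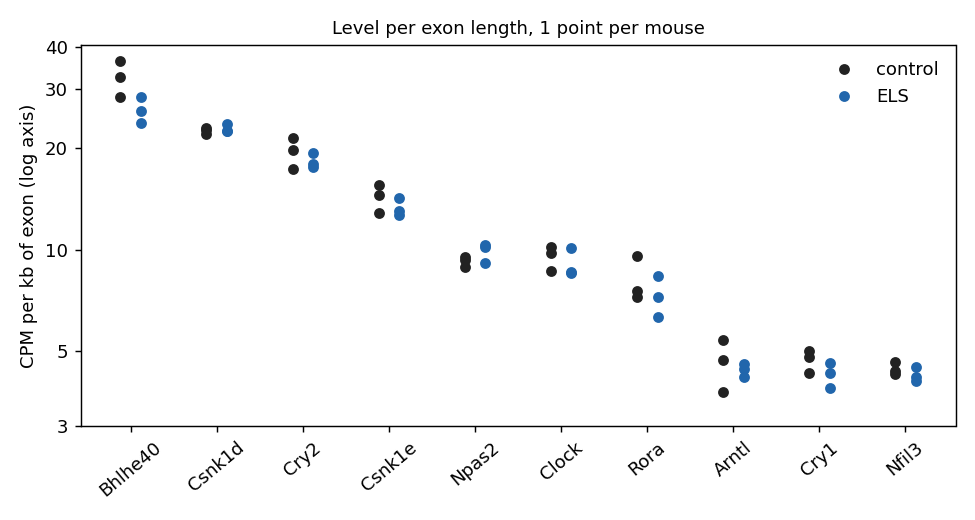
The level of each clock core gene is plotted as CPM per kb of exon on a log axis, 1 point per mouse, with control mice in black and ELS mice in blue. Bhlhe40 is the highest, between 23.7 and 36.2 CPM per kb, and Arntl, Cry1 and Nfil3 share the lowest place, between 3.79 and 5.39 CPM per kb.

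Levels were compared between genes per kb of exon, over all annotated exons of each gene. Bhlhe40 came first, with a mean over the 6 mice of 29.1 CPM per kb, above 86.4% of the 12579 genes with a length. Csnk1d followed at 22.7, Cry2 at 18.9 and Csnk1e at 13.8 CPM per kb, and the ranges of these 4 genes over the mice did not overlap from one to the next. Npas2 at 9.56, Clock at 9.31 and Rora at 7.70 CPM per kb came next, with ranges that overlapped between neighbours. Arntl at 4.52, Cry1 at 4.50 and Nfil3 at 4.34 CPM per kb could not be ordered, as their ranges overlapped as well. Arntl, the obligate partner of the activators, was thus at a lower level per kb than Npas2 and Clock in every mouse. Long annotated exons lower a level per kb where the cortex uses a shorter form, and Clock and Rora have 13.7 and 13.1 kb of exon.

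Ratios within a mouse compared paralogs on the per-kb scale. Npas2 over Clock was 0.950, 0.934 and 1.02 in controls 1 to 3, against 1.06, 1.02 and 1.20 for ELS animals 1 to 3. The ELS mice lay at or above the upper end of the controls, and the groups just overlapped at control mouse 3 and ELS mouse 2. Cry1 over Cry2 was 0.243 ± 0.039 for controls and 0.235 ± 0.0316 under ELS, and Csnk1d over Csnk1e was 1.58 ± 0.133 and 1.72 ± 0.138 (SD over 3 mice), with overlapping groups for both. These ratios were not tested.

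**Figure D4:**
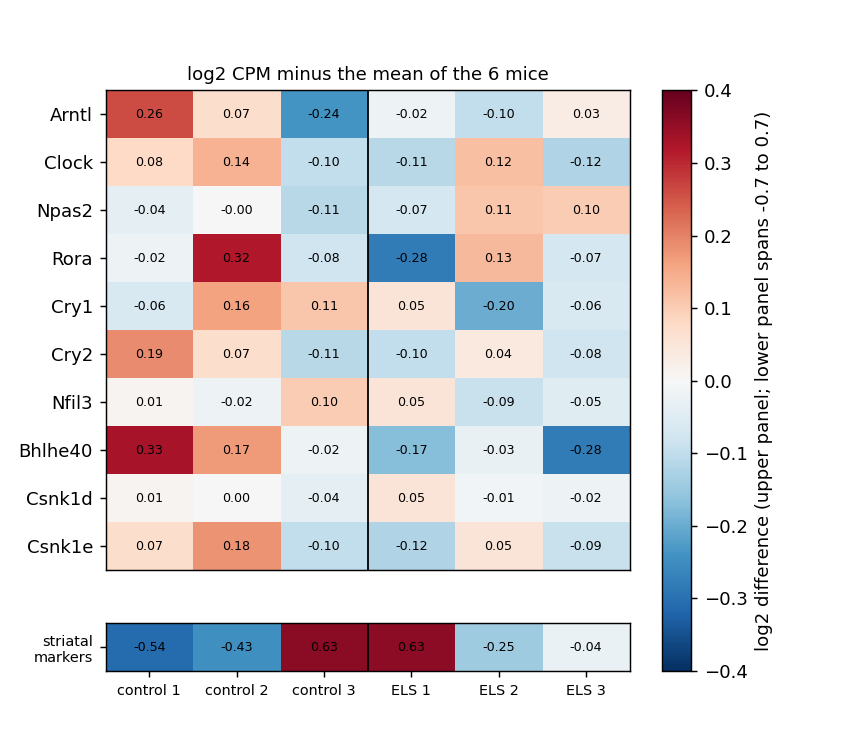
Each cell gives a gene's log2 CPM in a mouse minus its mean over the 6 mice, with control mice left of the line and ELS mice right, and the lower strip gives the centred mean log2 CPM of 7 striatal markers on a wider color range. Control mouse 3 is below the mean in 8 of 10 clock core genes, and its striatal value of 0.632 is close to the 0.626 of ELS mouse 1.

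Control mouse 3 was the lowest control for 8 of the 10 members, all but Cry1 and Nfil3, whereas it was the lowest control for 39.4% of all genes tested. Among ELS mice, ELS mouse 2 was the highest for 6 of the 10, Clock, Npas2, Rora, Cry2, Bhlhe40 and Csnk1e, against 34.2% of all genes. The median log2 deviation of the members was -0.09 in control mouse 3 and in ELS mouse 1, -0.07 in ELS mouse 3, and 0.10 in control mouse 2. Control mouse 3 and ELS mouse 1 were also the mice with the highest striatal, oligodendrocyte and blood marker sums and the lowest layer and astrocyte marker sums. With the striatal marker level alone as a covariate, the median log2 fold change of the members was -0.058. With control mouse 3 and ELS mouse 1 both left out it was -0.137, and with all 6 mice and no covariate it was -0.088. The coefficient of variation between control mice ran from 2.05% for Csnk1d to 17.4% for Arntl. The members as a list had a median of 9.15% for controls and 6.55% under ELS, beside 8.28% and 5.96% over all genes tested.

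**Figure D5:**
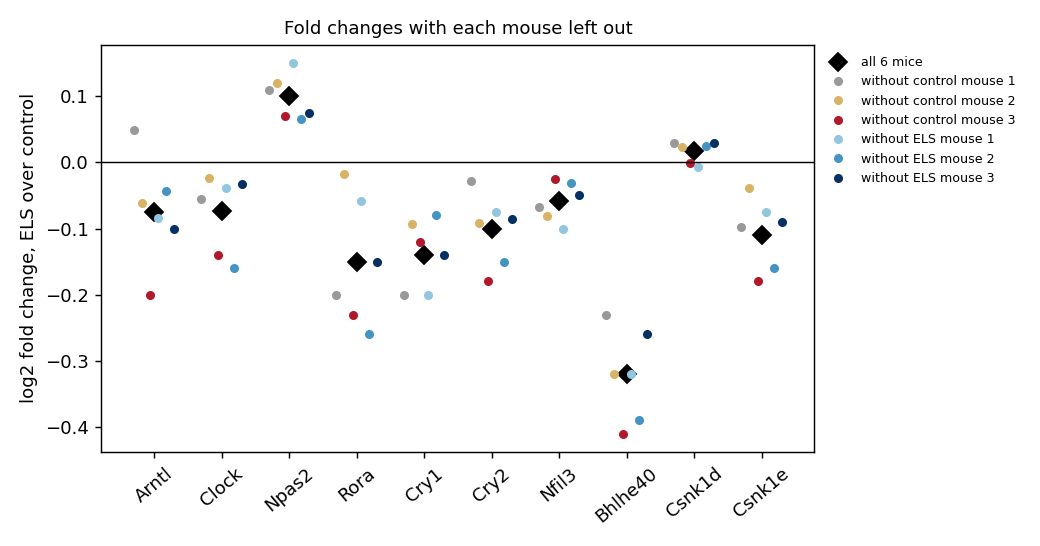
The log2 fold change of ELS over control is shown for each clock core gene with all 6 mice as a diamond and with each mouse left out as a colored point. Arntl crosses 0 without control mouse 1, Csnk1d crosses it without control mouse 3 or ELS mouse 1, and Bhlhe40 ranges from -0.41 to -0.23.

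Without control mouse 3, edgeR put 5 of the 10 members at p below 0.05 before adjustment, all with ELS lower. They were Arntl, Rora, Cry2, Bhlhe40 and Csnk1e, and in that fit 7.24% of all genes were under 0.05 with ELS lower. Without both control mouse 3 and ELS mouse 1, a fit added after the values were seen, 3 of the 10 were, Arntl, Cry2 and Bhlhe40, against 4.96% of all genes. None of these but Bhlhe40 without control mouse 3 passed the adjusted thresholds. As that mouse was the lowest control for most members, leaving it out raised the control means of those genes by construction.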

How the data were processed

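PFC libraries from 3 control and 3 ELS mice were analysed. The authors trimmed reads, aligned them to mm10 with STAR and deposited raw counts of uniquely mapped reads per gene symbol from HTSeq. The submitters' processing notes name STAR 2.7.1a and HTSeq 0.9.1, while the paper names another STAR version. The release of the annotation and the strand setting are not given in the sources used here. ELS columns carry the abbreviation for social isolation and were matched by it and their number. Replicate numbers were taken from the titles, which name different mice.

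The filter required 1 CPM or more throughout either group. R 4.3.3 with edgeR 4.0.16 was used for TMM factors and a quasi-likelihood fit with condition as the only term, with Benjamini-Hochberg adjustment over all 13185 genes. Standard errors and 95% intervals come from the F statistic. DESeq2 1.42.0, limma 3.58.1, other normalizations and filters, a replicate block and each mouse left out were alternatives. Fits with a striatal covariate and without 2 mice were chosen after seeing the data. Simulated counts with known changes served to check the fits. Positions and exon lengths come from GENCODE M21 on GRCm38, where 89.2% of symbols were found, and promoters from RefSeq. The opposite strand of 6 members holds a gene that covers 0.439% to 4.67% of their exons, and none of these genes is listed in the table.

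The members and gene lists were chosen with earlier results of these data known. Named besides the members were other clock genes that were called, the 6 with the smallest p of the rest, and Per1, Per2, Dbp and Nr1d1. Cldn5, Tef, Csnk1a1 and Gsk3b fall outside this rule and were named after their values were seen.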

Additional observations from a re-analysis of the deposited data

How the results depend on the processing

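None of the 10 members was called in any fit but that without control mouse 3, where 1 was, Bhlhe40, so the count ran from 0 to 1 with each mouse left out. Over all genes the count of 2 became 18 with DESeq2, 4 with every gene that had a read, 7 with the replicate block, 31 with the striatal covariate and 27 without control mouse 3 and ELS mouse 1, and ran from 1 to 29 with each mouse left out. The 25 other clock genes had 0 calls, 1 with DESeq2, 1 with the replicate block, 1 with the striatal covariate, 2 without control mouse 3 and ELS mouse 1, and from 0 to 2 with each mouse left out. Where counts rose, the cause was not tested. The median log2 fold change of the members stayed below 0, from -0.161 to -0.050 with each mouse left out. Of the 10 members, 8 kept their direction in all 15 alternatives. Arntl ran from -0.20 to 0.049 and Csnk1d from -0.007 to 0.030 with each mouse left out (-0.0007 without control mouse 3), and Csnk1d was -0.019 without control mouse 3 and ELS mouse 1. The adjusted p of Bhlhe40 ran from 0.0497 to 1. In the replicate block fit its adjusted p was 0.453. Same-numbered mice had correlations of their deviations of -0.164, 0.258 and -0.0355 for numbers 1 to 3, and only the mice numbered 2 correlated best with each other. The numbers were not taken to pair mice. The correlations cannot settle whether same-numbered mice shared a litter, as control mouse 3 and ELS mouse 1 also shared high striatal marker levels. The covariate and the fit without both mice were chosen after seeing the data. Each group held 3 mice, and Nfil3, at 245 to 303 reads, had the fewest reads of the members.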
